A study of Arabidopsis thaliana with 12 samples.

Results

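A set of 8 *Arabidopsis* genes that serve as markers of induced defence was followed in leaves of the *kaku4-2* mutant and the wild type (WT). They were chosen by locus ID from the table of expression values, in which all 8 of the 8 were found among 23069 genes. Of these, 4 are markers of the salicylic acid (SA) response, *PR1* (AT2G14610), *PR2* (AT3G57260), *PR5* (AT1G75040) and *LURP1* (AT2G14560), and 4 are markers of the jasmonic acid and ethylene (JA-ET) response, *PR3* (AT3G12500), *PR4* (AT3G04720), *PDF1.2* (AT5G44420) and *UPI* (AT5G43580). The study asked how KAKU4, a putative component of the plant nuclear lamina, affects chromatin states and gene expression, and compared RNA-seq of 3 *kaku4-2* libraries with 3 WT libraries. The *kaku4-2* plants came from a single homozygous T-DNA insertion line in which *KAKU4* is knocked down rather than absent, and the WT was Columbia (col in the labels, Col-0 in the study's methods). Both genotypes were raised first on plates and then in soil, with no pathogen or hormone named in the labels, and separate leaf samples were taken at 30 days. Expression was given as FPKM, fragments scaled by the length of the transcript and by the fragments of the library, so that levels of different genes are set side by side per length.

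Plants use SA mainly against pathogens that feed on living cells, and JA with ethylene mainly against fungi that kill cells before feeding and against chewing insects. SA acts through NPR1 and TGA factors and JA through the release of MYC factors from JAZ repressors, while JA and ethylene together act through ERF factors that bind GCC boxes, and the 2 branches often restrain each other. PR1 is a secreted cysteine-rich protein, PR2 a beta-1,3-glucanase that cuts a cell wall glucan of fungi and of the plant, PR5 a thaumatin-like protein, and LURP1 a protein required for basal resistance to a downy mildew. PR3 is a basic chitinase, PR4 a hevein-like chitin-binding protein, PDF1.2 a small antifungal defensin, and UPI a small serine protease inhibitor of the potato inhibitor type that acts against fungal and insect attack.

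The 250 bases before the annotated start of *PR2*, *PR5*, *PDF1.2* and *UPI*, which passed the cutoff described below, are shown because the salicylate-type and jasmonate-ethylene-type genes are known to differ in the elements of their promoters. The sequences are from the RefSeq TAIR10.1 assembly, written 5′ to 3′ on the strand of the gene, with matches to 4 short motifs in capitals.
*PR2* (chr3:21189968-21190217, minus strand): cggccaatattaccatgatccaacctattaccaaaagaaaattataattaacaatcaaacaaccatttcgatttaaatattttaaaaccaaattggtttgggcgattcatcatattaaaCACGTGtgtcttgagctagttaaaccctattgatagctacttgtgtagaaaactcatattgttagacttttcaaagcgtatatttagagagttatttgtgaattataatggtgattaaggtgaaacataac
*PR5* (chr1:28177420-28177669, plus strand): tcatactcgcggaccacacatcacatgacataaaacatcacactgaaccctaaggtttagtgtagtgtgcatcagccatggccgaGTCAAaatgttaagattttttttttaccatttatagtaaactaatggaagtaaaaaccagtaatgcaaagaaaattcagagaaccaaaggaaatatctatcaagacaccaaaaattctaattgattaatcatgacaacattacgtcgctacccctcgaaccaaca
*PDF1.2* (chr5:17907639-17907888, minus strand): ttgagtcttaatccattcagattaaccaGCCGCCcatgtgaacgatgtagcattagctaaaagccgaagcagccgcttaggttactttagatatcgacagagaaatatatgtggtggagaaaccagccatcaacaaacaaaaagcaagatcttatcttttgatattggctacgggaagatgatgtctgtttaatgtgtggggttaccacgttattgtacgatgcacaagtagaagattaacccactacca
*UPI* (chr5:17508753-17509002, minus strand): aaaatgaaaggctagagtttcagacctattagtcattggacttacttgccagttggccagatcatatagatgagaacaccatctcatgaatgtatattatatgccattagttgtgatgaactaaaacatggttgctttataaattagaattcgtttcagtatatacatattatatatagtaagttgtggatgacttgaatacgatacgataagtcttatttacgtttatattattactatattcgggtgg
The motifs searched on both strands were TTGAC, the core of the W box of WRKY factors, TGACG, the core bound by TGA factors, GCCGCC, the GCC box of ERF factors, and CACGTG, the G box. The TTGAC and TGACG motifs overlap wherever TTGACG occurs. *PR5* holds 1 W box core on the opposite strand, 165 to 161 bases before its start, a motif that 44.9% of 27444 promoters of this length hold. *PDF1.2* holds 1 GCC box, 222 to 217 bases before its start, found in 1.87% of these promoters, and *PR2* holds 1 G box, 131 to 126 bases before its start, found in 6.49%. *UPI* has no match to any of the 4 motifs in this window. *PR3*, not shown, holds 1 TGACG, a motif of 18.6% of promoters, and *LURP1* and *PR4* hold none of the 4. In windows of 1000 bases, the GCC box was present in 3 of these 7 genes, *PR3*, *PR4* and *PDF1.2*, and in 8.44% of all promoters, whereas a W box core was present in 6 of the 7 and in 88.1% of all promoters. A match of letters is a description of the window and not a measured site.

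*KAKU4* itself measured 0.402, 0.433 and 0.313 FPKM in *kaku4-2* replicates 1, 2 and 3, against 2.69, 3.61 and 2.51 FPKM in WT replicates 1, 2 and 3. All 3 *kaku4-2* libraries were below all WT libraries (log2 fold change -2.64, SE 0.41, adjusted p = 0.00933, limma), as the labels state. The genes were compared on log2(FPKM + 0.1), and a gene was called with the cutoff of the study, for which the log2 ratio of the medians had to reach 0.6 in size and the unadjusted p had to be 0.05 or less. The p came from limma. With the same cutoff the study reported more genes in both directions than found here, with more upregulated than downregulated. Here, 1037 of 20638 genes tested were upregulated in *kaku4-2* and 1370 were downregulated, and 50 and 49 genes were higher and lower at an adjusted p of at most 0.05 (limma). The split turned with the scaling, to 1331 upregulated and 1014 downregulated genes with the libraries scaled by their median ratio, 1364 and 1152 with a length trend removed, and 1097 and 1030 after quantile normalization. The median log2 fold change of all genes was -0.02, and 0.08 with median ratio scaling.

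One library stood apart. In *kaku4-2* replicate 3, short transcripts were low and long transcripts high relative to the other libraries, with a median deviation of -0.98 on the log2 scale in genes of the shortest of 20 length bins and 1.05 in the longest, and WT replicate 3 had a milder trend of the opposite direction, 0.61 and -0.42. This touches the defence markers directly, since 7 of the 8 have a transcript shorter than the median of the tested genes (1680 bases), from 579 bases for *PDF1.2* to 1477 bases for *PR2*. *LURP1*, the eighth, is annotated with 4 transcripts of 964 to 1919 bases, of which the longest was used. The fold changes of the 8 genes are therefore given with all 6 libraries, without *kaku4-2* replicate 3, and after the median deviation of the length bin was taken out of each library, an alternative that cannot tell a technical trend from a real one. The origin of the trend was not tested.

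**Figure D1:**
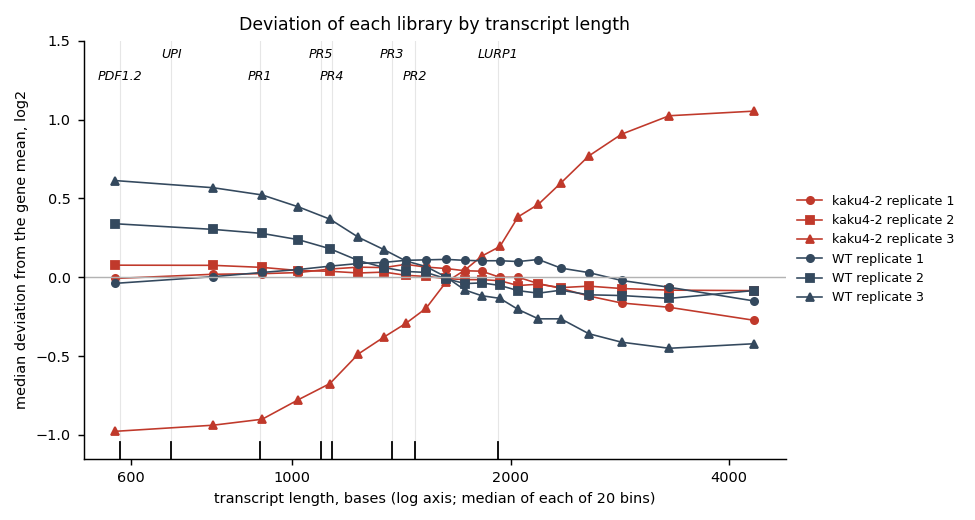
Median deviation of each library from the mean of each gene on the log2 scale (y axis) in 20 bins of transcript length (x axis, bases, log axis), with 1 line per library and the lengths of the 8 genes marked. The line of *kaku4-2* replicate 3 runs from -0.98 in the shortest bin to 1.05 in the longest, and 7 of the 8 genes lie on its low side.

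The samples were leaf, and leaf markers were high. The summed level of 5 mesophyll genes was 24162 to 25195 FPKM in the *kaku4-2* libraries and 28300 to 38084 FPKM in the WT libraries. No mesophyll gene passed the cutoff, although 3 of the 5 were lower in all *kaku4-2* libraries than in all WT libraries, where 15.0% of all genes were. The median log2 fold change of the 5 was -0.51, beside -0.02 over all genes. The summed levels of 4 epidermis, 4 guard cell and 3 phloem markers overlapped between the genotypes, and none of these genes passed the cutoff. Root markers summed to 44.5 to 71.2 FPKM in the *kaku4-2* libraries and 38.7 to 52.6 FPKM in the WT libraries, most of it from *PYK10*, and 1 of the 4, *SHR*, was downregulated. Flower and seed markers summed to 1.26 to 1.91 FPKM in the *kaku4-2* libraries and 1.43 to 3.00 FPKM in the WT libraries, and *CASP1*, a marker of the root endodermis, was at 0 in *kaku4-2* replicate 3 and WT replicate 1 and at most 0.348 FPKM elsewhere. In such bulk samples, more cells that express a gene and more RNA per cell cannot be told apart, and the part of tissue makeup in the results was not tested.

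Of the 8 genes, 4 were upregulated in *kaku4-2*, where 5.02% of all genes tested were, 1 was downregulated, where 6.64% were, and 3 did not pass the cutoff. All 8 passed the filter on low values, at an estimated 201 to 111237 fragments per library. On this estimate the counting error of a single value was at most 7.05% in *UPI* and at most 3.87% in the other 7. The estimate is approximate, since it rests on fitted library divisors that do not follow the nearly equal read totals listed by the study. No gene of the 8 had an adjusted p of at most 0.05 over all genes tested with all 6 libraries (limma, Benjamini-Hochberg adjustment), where 0.242% of genes were higher and 0.237% were lower at this level, although 5 of the 8 had an unadjusted p of at most 0.05. Of the 8, 3 were higher in every *kaku4-2* library than in every WT library, *PR2*, *PR5* and *UPI*, where 7.92% of all genes were, and 1 was lower in every *kaku4-2* library, *PDF1.2*, where 15.0% were. The division did not follow the 2 hormone branches fully. Of the 4 salicylate-type genes 3 were upregulated, and of the 4 jasmonate-ethylene-type genes 1 was downregulated and 1, *UPI*, was upregulated with the highest log2 fold change of the 8 (1.35).

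**Figure D2:**
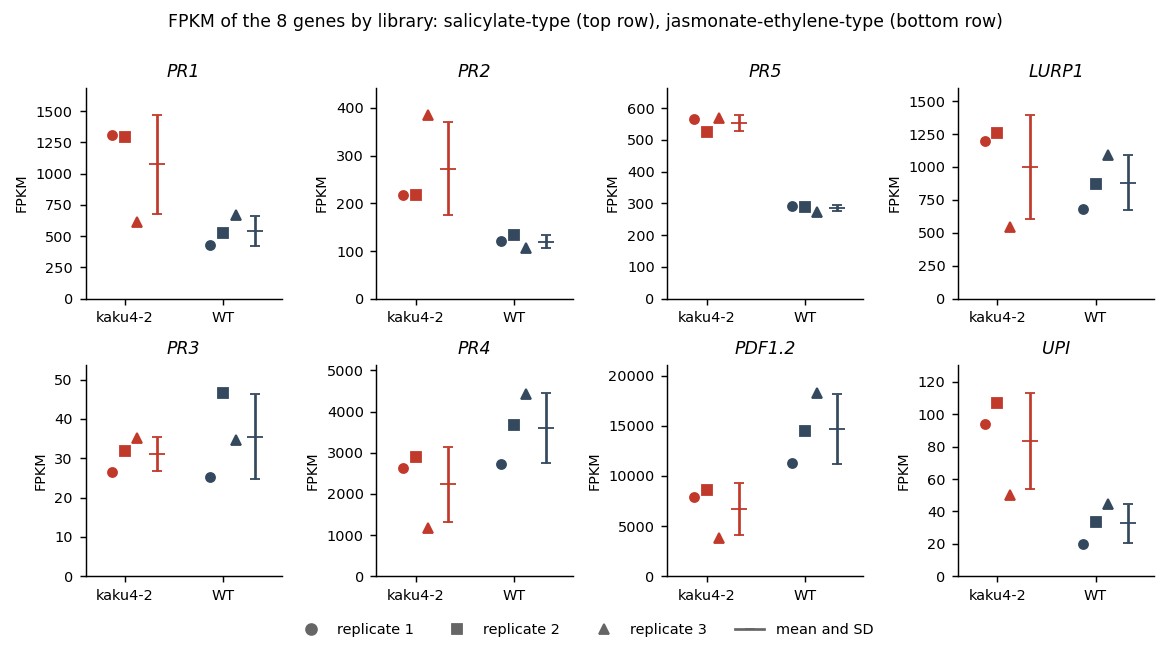
FPKM of the 8 genes (y axis, from 0) in each *kaku4-2* and WT library (x axis), with the replicates as symbols and the mean and SD beside them. *PR2*, *PR5* and *UPI* are higher in all 3 *kaku4-2* libraries and *PDF1.2* is lower, and *kaku4-2* replicate 3 falls among the WT values in *PR1* (617 FPKM) and below them in *LURP1* (548 FPKM) and *PR4* (1180.1 FPKM).

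*PR5* gave the most even difference of the salicylate-type genes. It measured 566, 525 and 569 FPKM in *kaku4-2* replicates 1, 2 and 3, against 293, 289 and 274 FPKM in the WT replicates. The 3 *kaku4-2* libraries lay close together and above all WT libraries, with means of 553 ± 25.0 and 285 ± 10.1 FPKM (SD, n = 3 each). The log2 fold change was 0.95 (SE 0.28, adjusted p = 0.185, limma with Benjamini-Hochberg adjustment), or 0.93 without *kaku4-2* replicate 3 (adjusted p = 0.0312) and 1.36 with the length trend removed (adjusted p = 0.0357). With the trend removed *PR5* stood at 546, 511 and 909 in the *kaku4-2* replicates and 279, 255 and 212 in the WT replicates. The rise to 1.36 thus came with a wider spread, in which *kaku4-2* replicate 3 stood apart. *PR5* kept its call in all 17 alternatives.

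*PR2*, the glucanase, measured 217, 217 and 385 FPKM in *kaku4-2* replicates 1, 2 and 3 and 121, 133 and 105 FPKM in the WT replicates. *kaku4-2* replicate 3 was the highest of the 6, and the genotypes did not overlap. The means were 273 ± 97.1 FPKM in *kaku4-2* and 119.9 ± 13.8 FPKM in WT (SD, n = 3 each). The log2 fold change was 1.14 (SE 0.30, adjusted p = 0.145, limma with Benjamini-Hochberg adjustment), 0.86 without *kaku4-2* replicate 3 (adjusted p = 0.0483) and 1.29 with the length trend removed (adjusted p = 0.104). *PR2* was called in all 17 alternatives as well.

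*PR1*, the marker most used for the SA response, measured 1313, 1289 and 617 FPKM in *kaku4-2* replicates 1, 2 and 3, against 429, 524 and 667 FPKM in the WT replicates. *kaku4-2* replicate 3 lay between WT replicates 2 and 3, so the genotypes overlapped. The means were 1073 ± 395 and 540.4 ± 119.8 FPKM in *kaku4-2* and WT (SD, n = 3 each), with a log2 fold change of 0.93 (SE 0.37, adjusted p = 0.295, limma with Benjamini-Hochberg adjustment). The call was lost without *kaku4-2* replicate 1 (log2 fold change 0.75, adjusted p = 0.328 from limma), *kaku4-2* replicate 2 (0.76, adjusted p = 0.326), WT replicate 1 (0.78, adjusted p = 0.349) or WT replicate 2 (0.92, adjusted p = 0.629), since the unadjusted p then passed 0.05. Without *kaku4-2* replicate 3 it was 1.29 (adjusted p = 0.0211, limma), and with the length trend removed 1.48 (adjusted p = 0.00166), when *PR1* stood at 1293, 1235 and 1152 in the *kaku4-2* replicates and at 420.4, 433 and 465 in the WT replicates. With the trend removed the genotypes no longer overlapped.

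*LURP1*, the fourth salicylate-type gene, measured 1194, 1260.0 and 548 FPKM in *kaku4-2* replicates 1, 2 and 3 and 678, 872 and 1094 FPKM in the WT replicates. The lowest and the highest values of the 6 were both from *kaku4-2* libraries. Its log2 fold change was 0.12, with a 95% confidence interval of -0.72 to 0.95 (adjusted p = 0.881, limma). Its log2 fold change was 0.50 without *kaku4-2* replicate 3 (adjusted p = 0.348, limma) and 0.03 with the length trend removed (adjusted p = 0.973). The value of 0.03 rests on the longest transcript, of 1919 bases, in whose length bin *kaku4-2* replicate 3 deviated by 0.19. In the bin with a median of 1020 bases it deviated by -0.78, and the shortest transcript of *LURP1* has 964 bases. A correction by a shorter transcript was not tested. *LURP1* passed the cutoff only after quantile normalization among the 17 alternatives, at 0.69 (adjusted p = 0.0770, limma).

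Among the jasmonate-ethylene-type genes, *PDF1.2* was the most abundant of the 8. It measured 7866, 8572 and 3784 FPKM in *kaku4-2* replicates 1, 2 and 3, against 11272, 14457 and 18297 FPKM in the WT replicates. All *kaku4-2* libraries were below all WT libraries, and the means were 6740.4 ± 2585 and 14675 ± 3518 FPKM (SD, n = 3 each). It ranked 11 to 24 among all genes in the *kaku4-2* libraries and 6 to 9 in the WT libraries. The log2 fold change was -1.18 (SE 0.51, adjusted p = 0.315, limma with Benjamini-Hochberg adjustment), and -0.81 without *kaku4-2* replicate 3, where the call was kept (adjusted p = 0.213, limma).

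The call of *PDF1.2* was the least stable of the 5, kept in 9 of 17 alternatives, while the direction and the lack of overlap were kept in all 17. It was lost without *kaku4-2* replicate 1 (log2 fold change -1.34, adjusted p = 0.276 from limma) and without WT replicate 1 (-1.36, adjusted p = 0.304), WT replicate 2 (-1.18, adjusted p = 0.629) or WT replicate 3 (-1.01, adjusted p = 0.834), since the unadjusted p then passed 0.05. It was also lost without the filter on low values (adjusted p = 0.40, limma). With the length trend removed the log2 fold change was -0.58, but the spread shrank to 7908, 8129 and 7449 in the *kaku4-2* replicates and 11578, 11429 and 11964 in the WT replicates, and the adjusted p was 0.0101 (limma). There and after quantile normalization (-0.61, adjusted p = 0.111 from limma) the log2 ratio of medians, -0.55 and -0.47, missed the cutoff of 0.6 in size.

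*UPI* measured 94.1, 107 and 49.9 FPKM in *kaku4-2* replicates 1, 2 and 3, against 20.2, 33.7 and 44.3 FPKM in the WT replicates. The lowest *kaku4-2* library was above the highest WT library by a small margin, and the means were 83.5 ± 29.8 and 32.7 ± 12.1 FPKM (SD, n = 3 each). The log2 fold change was 1.35 (SE 0.36, adjusted p = 0.143, limma with Benjamini-Hochberg adjustment). Without *kaku4-2* replicate 3 it was 1.68 (adjusted p = 0.0212), and with the length trend removed 1.95 (adjusted p = 0.00394), with 94.6, 101 and 98.3 in the *kaku4-2* replicates and 20.7, 26.6 and 29.0 in the WT replicates. *UPI* was called in all 17 alternatives.

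*PR4*, the hevein-like gene, measured 2621, 2889.6 and 1180.1 FPKM in *kaku4-2* replicates 1, 2 and 3 and 2719, 3661 and 4428 FPKM in the WT replicates. *kaku4-2* replicate 2 was above WT replicate 1, so the genotypes overlapped. The log2 fold change was -0.77 (95% confidence interval -1.72 to 0.18, adjusted p = 0.378, limma), -0.36 without *kaku4-2* replicate 3 (adjusted p = 0.546) and -0.37 with the length trend removed (adjusted p = 0.307). *PR4* passed the cutoff in none of the 17 alternatives.

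*PR3*, the basic chitinase, was the least abundant jasmonate-ethylene-type gene in the *kaku4-2* libraries. It measured 26.6, 31.8 and 35.2 FPKM in *kaku4-2* replicates 1, 2 and 3 and 25.1, 46.7 and 34.8 FPKM in the WT replicates. The 3 *kaku4-2* values all lay within the range of the WT values. The log2 fold change was -0.15 (95% confidence interval -0.78 to 0.48, adjusted p = 0.789, limma), -0.24 without *kaku4-2* replicate 3 (adjusted p = 0.687) and 0.05 with the length trend removed (adjusted p = 0.939). *PR3* overlaps AT3G12502 on the opposite strand, and whether reads were counted by strand is not given in the sources used here, so its value may hold reads of both.

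**Figure D3:**
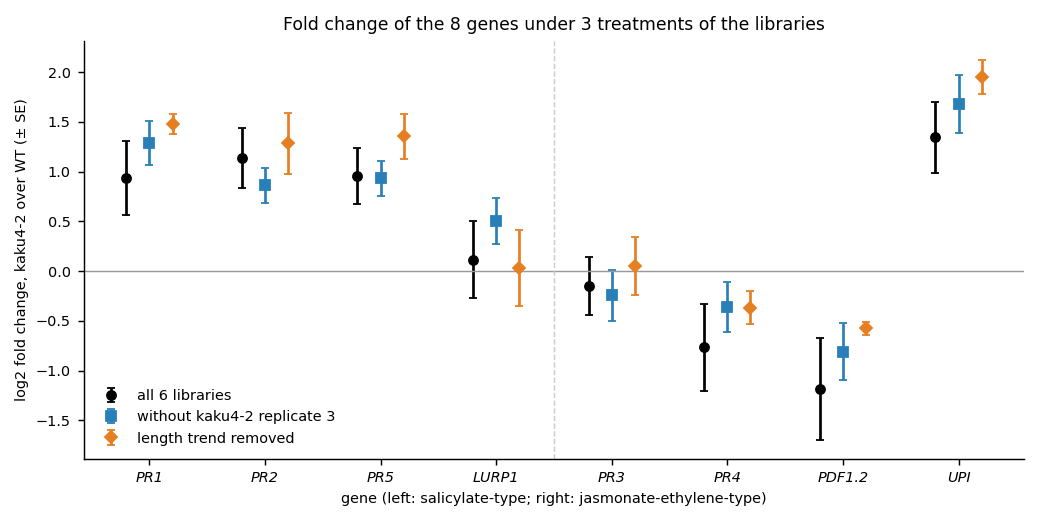
Log2 fold change of *kaku4-2* over WT with its SE (y axis) for the 8 genes (x axis), with all 6 libraries, without *kaku4-2* replicate 3, and with the length trend removed. *PR1* moves from 0.93 with all libraries to 1.48 with the trend removed and *PDF1.2* from -1.18 to -0.58, while *UPI* is at or above 1.35 in all 3.

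The order of the 8 genes differed between the genotypes at 2 places. In both, *PDF1.2* was first and *PR4* second in mean FPKM. In the *kaku4-2* libraries *PR1* was above *LURP1* (1001 ± 394 FPKM, SD, n = 3) in all 3, and in the WT libraries *LURP1* (881 ± 208 FPKM, SD, n = 3) was above *PR1* in all 3. *PR5* and *PR2* followed in both genotypes. *UPI* stood above *PR3* in all 3 *kaku4-2* libraries and was last in the WT, where it did not differ from *PR3* beyond the spread. Neighbours in the order whose ranges overlapped were *PR4* and *PR1*, *PR1* and *LURP1*, and *LURP1* and *PR5* in *kaku4-2*, and *PR3* and *UPI* in WT.

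Ratios of 2 genes within a library do not depend on how the library was scaled, and those between genes of like length depend little on the length trend. *PR1* (902 bases) over *PDF1.2* (579 bases) was 0.167, 0.150 and 0.163 in *kaku4-2* replicates 1, 2 and 3 and 0.0381, 0.0363 and 0.0365 in the WT replicates. The ratio of the medians was 4.47, and *kaku4-2* replicate 3, which stood apart in both genes, fell among the other *kaku4-2* libraries in their ratio. *UPI* (681 bases) over *PDF1.2* was 0.0120, 0.0124 and 0.0132 in *kaku4-2* and 0.00179, 0.00233 and 0.00242 in WT, 5.34 times as high by medians.

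*LURP1* over *PR1* was 0.909, 0.977 and 0.887 in *kaku4-2* replicates 1, 2 and 3, against 1.58, 1.66 and 1.64 in the WT replicates. The 2 salicylate-type genes, which lie 25707 bases apart on chromosome 2 with 1 protein-coding gene, *PRB1*, between them, were in a lower ratio in every *kaku4-2* library. They differ in length (1919 and 902 bases), and with the length trend removed their ratio was 0.924, 1.04 and 0.415 in the *kaku4-2* replicates and 1.5003, 2.09 and 2.58 in the WT replicates, a wider spread still without overlap. The corrected ratio depends on the use of the longest transcript of *LURP1*. *PR5* over *PR4*, of nearly equal length, was 0.216, 0.182 and 0.482 in *kaku4-2* and 0.108, 0.0790 and 0.0619 in WT, again without overlap. These pairs were chosen after the values were seen and carry no test, and an exact permutation test of 3 against 3 libraries could not give a p under 0.1.

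**Figure D4:**
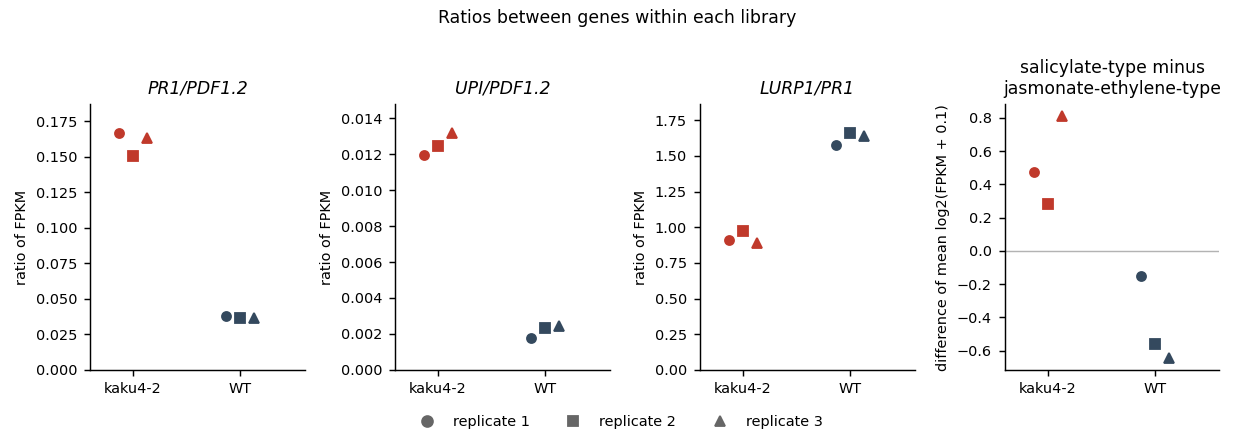
Ratio of the FPKM of 2 genes within each library for 3 pairs (y axes, from 0) and, at the right, the mean log2(FPKM + 0.1) of the 4 salicylate-type genes minus that of the 4 jasmonate-ethylene-type genes, in *kaku4-2* and WT (x axes). *PR1*/*PDF1.2* is 0.150 to 0.167 in *kaku4-2* and 0.0363 to 0.0381 in WT, and no panel shows an overlap of the genotypes.

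Averaged on the log2 scale, the salicylate-type genes minus the jasmonate-ethylene-type genes gave 0.47, 0.28 and 0.81 in *kaku4-2* replicates 1, 2 and 3 and -0.15, -0.56 and -0.64 in the WT replicates. With the length trend removed these were 0.46, 0.32 and 0.48 in *kaku4-2* and -0.20, -0.44 and -0.41 in WT. The salicylate-type mean was the higher of the 2 in all *kaku4-2* libraries and the lower in all WT libraries. The sign itself depends on the levels of the genes placed in each group, so only the difference between the genotypes is read here. Together the 8 genes took 0.864% to 1.16% of all FPKM in a *kaku4-2* library and 1.198% to 1.41% in a WT library, most of it *PDF1.2* and *PR4*. The median log2 fold change was 0.94 over the 4 salicylate-type genes and -0.46 over the 4 jasmonate-ethylene-type genes, beside -0.02 over all genes.

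The near copies of *PDF1.2* were also downregulated. The coding sequences of *PDF1.2*, *PDF1.2b* (AT2G26020) and *PDF1.2c* (AT5G44430) are given in full to show how alike the copies are. The 22 positions at which the 3 differ are in capitals.
*PDF1.2*: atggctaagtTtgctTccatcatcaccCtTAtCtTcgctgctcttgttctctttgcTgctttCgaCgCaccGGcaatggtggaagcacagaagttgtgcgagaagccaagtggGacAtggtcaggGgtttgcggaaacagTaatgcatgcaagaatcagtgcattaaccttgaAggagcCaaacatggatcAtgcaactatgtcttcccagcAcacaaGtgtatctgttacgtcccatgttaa
*PDF1.2b*: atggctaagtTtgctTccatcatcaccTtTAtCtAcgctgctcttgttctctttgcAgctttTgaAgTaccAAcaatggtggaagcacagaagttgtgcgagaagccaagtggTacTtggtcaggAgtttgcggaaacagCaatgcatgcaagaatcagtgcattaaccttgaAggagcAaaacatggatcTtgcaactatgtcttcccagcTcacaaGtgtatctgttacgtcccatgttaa
*PDF1.2c*: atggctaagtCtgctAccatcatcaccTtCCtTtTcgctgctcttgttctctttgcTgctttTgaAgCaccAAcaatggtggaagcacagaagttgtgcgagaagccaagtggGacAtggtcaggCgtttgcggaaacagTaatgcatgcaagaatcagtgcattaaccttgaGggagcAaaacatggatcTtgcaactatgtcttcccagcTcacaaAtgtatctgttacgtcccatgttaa
Of 243 coding bases, *PDF1.2b* differs from *PDF1.2* at 15 and *PDF1.2c* at 16, an identity of 93.8% and 93.4%, and *PDF1.3* (AT2G26010) differs at 21, an identity of 91.4%. How reads that fit several copies were shared out is not given in the sources used here, so the levels of the single copies are uncertain and their sum is firmer. The sum of the 4 was 18499.5, 20477 and 9002 FPKM in *kaku4-2* replicates 1, 2 and 3, against 27401, 36091 and 47077 FPKM in the WT replicates. It took 1.08% to 1.59% of the FPKM sum in *kaku4-2* libraries and 2.11% to 2.66% in WT libraries, without overlap.

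The 3 copies belong to a list of 10 further JA-ET-responsive genes, of which none was upregulated, 4 were downregulated, where 6.64% of all genes tested were, and 6 did not pass the cutoff (median log2 fold change -0.39, beside -0.02 over all genes). Without *kaku4-2* replicate 3, 5 were downregulated, and with the length trend removed 3, but without WT replicate 2 or without WT replicate 3 only 1 was, *PDF1.3*. Without WT replicate 3, 1 of the 10, *PDF1.1*, was upregulated, and after quantile normalization 1 was upregulated and 2 were downregulated, with a median of 0.06. *PDF1.2b* measured 4819, 5088 and 2322 FPKM in *kaku4-2* replicates 1, 2 and 3 and 7043, 9788 and 13133 FPKM in the WT replicates, a log2 fold change of -1.33 (SE 0.48, adjusted p = 0.270, limma). *PDF1.2c* had -1.26 (SE 0.47, adjusted p = 0.281), *PDF1.3* -1.38 (SE 0.43, adjusted p = 0.214), and *THI2.1*, a thionin, -0.94 (SE 0.32, adjusted p = 0.244). All 4 were lower in every *kaku4-2* library than in every WT library, where 15.0% of all genes were. All of them but *THI2.1* are near copies of *PDF1.2* that may share reads with it. Those 3 are therefore not results separate from that of *PDF1.2*. *PDF1.3* was called in all 17 alternatives, while the calls of *PDF1.2b* and *PDF1.2c* were lost without WT replicate 2 or 3, that of *PDF1.2c* also with the length trend removed, and that of *THI2.1* under median ratio scaling and with the trend removed.

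Regulators of the JA-ET branch did not share a direction. Of 19 genes tested, 3 were upregulated (5.02% of all genes), 3 were downregulated (6.64% of all genes) and 13 did not pass the cutoff (median log2 fold change 0.26, and -0.10 without *kaku4-2* replicate 3). Without WT replicate 2, 1 was upregulated and 2 were downregulated, without WT replicate 3 1 and 1, and after quantile normalization none was downregulated. *ERF2*, an ERF activator that binds GCC boxes, measured 141, 133 and 121 FPKM in *kaku4-2* replicates 1, 2 and 3 and 62.0, 50.4 and 55.0 FPKM in the WT replicates (log2 fold change 1.24, SE 0.26, adjusted p = 0.0561, limma). *JAZ10*, a repressor of the JA response that JA itself induces, had a log2 fold change of -1.07 (SE 0.32, adjusted p = 0.187), and *AOS*, allene oxide synthase of JA synthesis, -0.97 (SE 0.35, adjusted p = 0.263). The other JAZ genes of the list, outside the naming rule, went both ways, *JAZ1* at 0.90 and *JAZ3* at -0.63, and neither passed the cutoff. Reads of *JAZ10* and of *THI2.1* may be shared with a gene on the opposite strand. *EIN3*, the main transcription factor of ethylene signalling, had 0.97 (SE 0.43, adjusted p = 0.318, limma) but rested on *kaku4-2* replicate 3, at 44.8 FPKM beside 16.3 and 13.0 FPKM in *kaku4-2* replicates 1 and 2 and 8.30 to 16.2 FPKM in the WT libraries. The call of *EIN3* was kept in 9 of 17 alternatives, and was lost without *kaku4-2* replicate 3 and without WT replicate 2 or 3 among others, with a log2 fold change of 0.43 to 1.32 over the alternatives. That of *AOS* was kept in 13 and lost without WT replicate 2 or 3 among others (-1.14 to -0.42 over the alternatives), while *ERF2* was called in all 17 and *JAZ10* in all but quantile normalization. The other 2 called genes, outside the naming rule, were *EIL1*, upregulated but not called without WT replicate 2 or 3, and *MYC4*, downregulated and called in 9 of 17, not without *kaku4-2* replicate 3, WT replicate 1 or WT replicate 3.

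**Figure D5:**
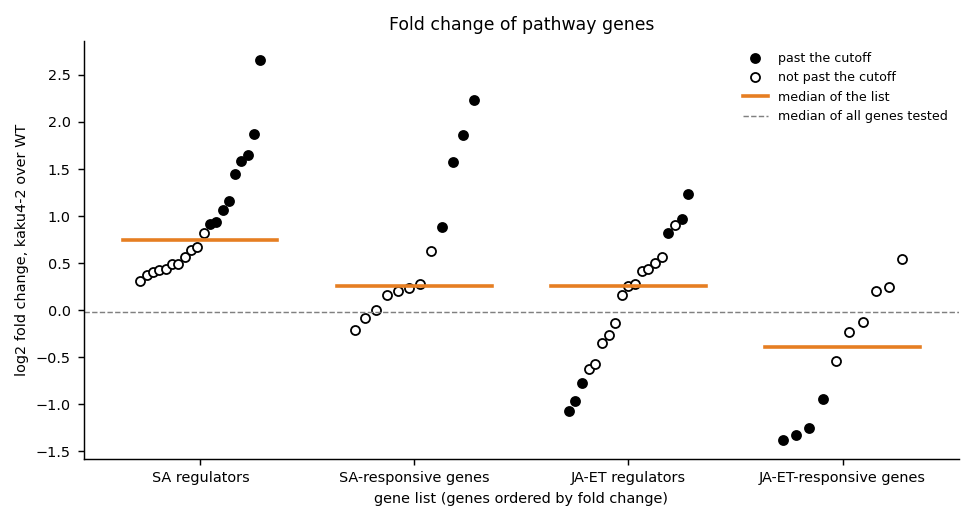
Log2 fold change of *kaku4-2* over WT (y axis) of the genes of 4 pathway lists (x axis), ordered within a list, with filled points past the cutoff, the median of each list and the median of all genes tested (-0.02). In the list of SA regulators 9 of 20 genes are past the cutoff, all of them upward. In that of JA-ET-responsive genes 4 of 10 are, all of them downward and all but *THI2.1* near copies of *PDF1.2*.

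The calls among SA regulators all went one way. Of 20 genes, 9 were upregulated, where 5.02% of all genes tested were, none was downregulated and 11 did not pass the cutoff (median log2 fold change 0.75), and without *kaku4-2* replicate 3 the count was 11. *FMO1*, which makes the mobile immune signal N-hydroxypipecolic acid, measured 4.91, 4.23 and 5.74 FPKM in *kaku4-2* replicates 1, 2 and 3 and 0.926, 0.643 and 0.555 FPKM in the WT replicates, a log2 fold change of 2.66 (SE 0.38, adjusted p = 0.00676, limma). *ALD1*, an aminotransferase earlier in the same pathway, measured 10.4, 9.25 and 7.13 FPKM in *kaku4-2* and 2.94, 1.57 and 2.75 FPKM in WT (log2 fold change 1.87, SE 0.35, adjusted p = 0.0325, limma). *SARD1*, a transcription factor that switches on SA synthesis, had a log2 fold change of 1.65 (SE 0.33, adjusted p = 0.0494), though reads may be shared with a gene on its opposite strand. *PBS3*, an enzyme of SA synthesis, had 1.59 (SE 0.35, adjusted p = 0.0740). These 4 genes were called in all 17 alternatives.

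The other 5 called SA regulators, named to complete the count, were *EDS1*, *CBP60g*, *NPR1*, *TGA3* and *WRKY70*, with log2 fold changes of 0.92 for *TGA3* to 1.45 for *CBP60g*. All 9 called genes were higher in every *kaku4-2* library than in every WT library, where 7.92% of all genes were. The calls of *NPR1* and *TGA3* were lost without WT replicate 2, that of *TGA3* also without WT replicate 3, and that of *NPR1* with the length trend removed. Of 12 further SA-responsive genes, 4 were upregulated, where 5.02% of all genes tested were, none was downregulated and 8 did not pass the cutoff (median 0.26). With the length trend removed 6 were upregulated (median 0.60), and after quantile normalization 7 (median 0.51). *WRKY53*, a WRKY factor of senescence and defence, measured 62.3, 60.5 and 46.8 FPKM in *kaku4-2* replicates 1, 2 and 3 and 19.7, 12.5 and 14.5 FPKM in the WT replicates (log2 fold change 1.87, SE 0.28, adjusted p = 0.00790, limma), with a gene on its opposite strand. *AIG1*, first found as induced by a bacterial effector, had 2.24 (SE 0.35, adjusted p = 0.0106), *NUDT6* 1.57 (SE 0.32, adjusted p = 0.0503) and *WRKY18* 0.88 (SE 0.29, adjusted p = 0.228). These 4 were called in all 17 alternatives. The 8 that did not pass, outside the naming rule, had log2 fold changes of -0.21 (*GRXC9*) to 0.63 (*ACD6*), with *NIMIN2* at 0.004 and *PCC1* at -0.08.

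Genes that resemble the PR proteins in sequence did not move as one group. Over 6 families, 55 of 73 listed genes were tested, of which 7 were upregulated (5.02% of all genes), 9 were downregulated (6.64% of all genes) and 39 did not pass the cutoff (median log2 fold change -0.26). With the length trend removed 12 were upregulated and 4 downregulated (median 0.13). Leaving out WT replicate 2 gave 6 upward and 3 downward calls, and leaving out WT replicate 3 gave 5 of each. In the PR1 family 2 of 10 were up and 3 down, in the thaumatin family 1 of 15 up and 2 down, in the chitinase family 3 of 11 up and 1 down, in the glucanase family 1 of 5 up and 1 down, and in the LURP-one-related family none of 12 up and 2 down. Neither of the 2 tested genes of the inhibitor family of *UPI* passed the cutoff. The counts of single families moved with the libraries: of the thaumatins none was down without WT replicate 2 or 3 and 5 were without *kaku4-2* replicate 1, *kaku4-2* replicate 2 or WT replicate 1, and of the LURP-one-related genes none was down without *kaku4-2* replicate 3.

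In the thaumatin family, *OSM34*, an osmotin-like gene, measured 23.6, 27.6 and 44.0 FPKM in *kaku4-2* replicates 1, 2 and 3, against 7.88, 8.71 and 6.76 FPKM in the WT replicates (log2 fold change 1.97, SE 0.30, adjusted p = 0.00933, limma). In the PR1 family, AT4G25780 was lower, at 4.20, 4.36 and 2.84 FPKM in *kaku4-2* and 13.4, 16.2 and 17.7 FPKM in WT (log2 fold change -2.04, SE 0.31, adjusted p = 0.00790, limma). AT4G33720 of that family was at 2.48, 1.85 and 1.62 FPKM in *kaku4-2* and was listed at 0 in WT replicates 1 and 2 and at 0.198 FPKM in WT replicate 3, so that its fitted log2 fold change ranged from 1.48 to 6.15 with the pseudocount and other settings (adjusted p = 0.00790 at the settings used, limma). The chitinase gene AT2G43570 was higher (log2 fold change 1.07, SE 0.26, adjusted p = 0.106), as were AT1G02360 (1.02) and AT4G19810 (0.78), while AT2G43580 was lower (-0.96). The remaining called genes were lower in *kaku4-2*, AT5G42100 of the glucanases (-0.94), AT3G09590 (-1.53) and AT5G66590 (-0.66) of the PR1 family, AT2G28790 (-0.62) and AT5G40020 (-1.0) of the thaumatins, and AT2G05910 (-1.10) and AT1G80120 (-0.71) of the LURP-one-related genes, apart from *BG3*, given below, and AT2G19980, a PR1-family gene under 1 FPKM, which were higher. The calls of AT2G28790, AT4G19810, AT5G66590, AT1G80120, AT2G05910, AT2G43580 and AT3G09590 were lost with the length trend removed. *OSM34*, *BG3*, AT4G25780, AT4G33720, AT2G43570 and AT1G02360 were called in all 17 alternatives, AT3G09590 in all but that one, and each of the other called family genes lost its call with at least 1 library left out.

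Several of the 8 genes stand near a relative in the genome. Near *PR2* on chromosome 3, *BG3* was higher, at 28.9, 33.7 and 29.5 FPKM in *kaku4-2* replicates 1, 2 and 3 and 11.0, 13.9 and 10.9 FPKM in the WT replicates (log2 fold change 1.36, SE 0.27, adjusted p = 0.0427, limma), whereas *BG1* was at most 0.956 FPKM in any library. Beside *PR5*, the thaumatin genes *TLP-3* (21.1, 25.3 and 9.01 FPKM in *kaku4-2*, 18.3, 26.8 and 34.5 FPKM in WT) and AT1G75050 did not pass the cutoff. *PRB1*, the basic relative next to *PR1*, measured 5.07, 4.64 and 3.58 FPKM in *kaku4-2* and 3.61, 3.60 and 4.58 FPKM in WT, with overlap. Beside *UPI*, the inhibitor gene AT5G43570 measured 5.81, 6.76 and 2.55 FPKM in *kaku4-2* and 2.03, 3.34 and 3.35 FPKM in WT, and did not pass the cutoff (adjusted p = 0.385, limma), but did, as upregulated, without *kaku4-2* replicate 3 and with the length trend removed. Beside *PDF1.2*, *PDF1.2c* was lower, as given above.

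The genes with a pattern over the 6 libraries most like that of *PR1*, by Pearson's r of log2(FPKM + 0.1) among 16496 genes with a mean of at least 1 FPKM, were AT1G64380, annotated as an integrase-type DNA-binding protein (r = 0.999), *PNP-A*, plant natriuretic peptide A (r = 0.998), and AT1G44830, of the same annotation as the first (r = 0.997). *PNP-A* measured 162, 161 and 83.1 FPKM in *kaku4-2* replicates 1, 2 and 3 and 65.7, 76.1 and 94.7 FPKM in the WT replicates. The most like *PDF1.2* were AT2G27402, AT4G09890 and AT3G56290, each at r = 1.00. Of the 8 genes, *UPI* was the most like *PR1* (r = 0.971), and *PR4* the most like *PDF1.2* (r = 0.968), while *PR2* ran against *PDF1.2* (r = -0.968). The 6 points of each r share the library trends described above, so that these values describe the libraries and carry no test.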

How the data were processed

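RNA-seq of rosette leaves was analysed in 3 *kaku4-2* and 3 WT libraries. The authors aligned paired-end reads to TAIR10 with TopHat2 2.0.9 and deposited FPKM values per gene from Cufflinks. How strand and multiply mapped reads were handled, the annotation and the version of Cufflinks are not given in the sources used here. The 6 ChIP-seq samples were not used. The genotype was taken from the labels, and the libraries are separate leaf samples.

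Genes averaging 0.1 FPKM or more over the libraries were compared by limma (version 3.58.1, R 4.3.3). The model held the genotype alone, on log2(FPKM + 0.1), with the prior variance following the mean level. Tests were two-sided, adjustment over all genes followed Benjamini and Hochberg, and the code was first tested on simulated data. Fragments were estimated from the spacing of low FPKM values, 32.8% to 41.3% of which stood at whole fragments to within 0.03 (6% by chance), so depth is an estimate and no count model was used. Intervals from it cover counting error only. The fitted divisors were 24600000, 24200000 and 32000000 fragments in *kaku4-2* replicates 1, 2 and 3 and 23900000, 20600000 and 19300000 in the WT replicates, with FPKM sums of 829805 to 1285627 in *kaku4-2* and 1298744 to 1767459 in WT. The study lists nearly equal numbers of mapped reads in all libraries, which the unequal divisors do not follow. Fragment counts and counting errors built on the divisors are therefore approximate. The smallest value above 0 was 0.057726, at 3305 values.

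Names and positions came from the RefSeq annotation of TAIR10.1, in which 22881 loci were found, and sequences from that assembly. The promoter of *PR1* is not reported here. The 8 genes, the 4 pathway, 6 family and 6 marker lists and the tests were chosen with earlier results of these data known. Named were the 8 genes, *KAKU4*, from each pathway and family list up to 4 called genes with the largest change and a mean of at least 1 FPKM, relatives beside the 8 genes, and the 3 genes most like *PR1* and *PDF1.2*. Other genes are said to be outside this rule. As alternatives, the pseudocount was set to 1 or 0.01 and the filter to none or 1 FPKM. Others were median ratio scaling, quantile normalization, a constant prior variance, a block for the replicate number, a length trend removed in 20 bins, the fold by mean FPKM, each library left out, and, added after seeing the data, median ratio scaling without *kaku4-2* replicate 3.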

Additional observations from a re-analysis of the deposited data

How the results depend on the processing

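Over the 17 alternatives *PR2*, *PR5* and *UPI* stayed upregulated. The counts of all genes upregulated and downregulated with the cutoff were 546 to 1512 and 673 to 2660 with a library left out. At an adjusted p of 0.05 or less (limma) they were 12 to 149 higher and 8 to 237 lower with a library left out, 33 and 29 with no filter, 19 and 17 with no trend of the prior variance, 177 and 96 with the length trend removed, and 180 and 109 with median ratio scaling without *kaku4-2* replicate 3. Of the 8 genes, 0 were downregulated with no filter, quantile normalization, the replicate block or the length trend removed, and 0 to 1 with a library left out. An adjusted p of at most 0.05 was reached by 3 of the 8 with quantile normalization, 4 with the length trend removed, 0 to 4 with a library left out and 4 with median ratio scaling without *kaku4-2* replicate 3. The related family genes gave 12 up and 4 down with the length trend removed, and 5 to 9 up and 3 to 11 down with a library left out. JA-ET regulators gave 1 to 4 up and 1 to 4 down with a library left out, 0 down with quantile normalization and 1 down with the replicate block. JA-ET-responsive genes gave 0 to 1 up and 1 to 5 down with a library left out, 1 up and 2 down with quantile normalization, and 2 down with the replicate block. SA-responsive genes gave 7 up with quantile normalization.

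*LURP1* ranged from -0.096 to 0.50 with a library left out, negative without *kaku4-2* replicate 1 (-0.058), *kaku4-2* replicate 2 (-0.096) or WT replicate 1 (-0.058). *PR3* ranged from -0.38 to 0.068 with a library left out, positive without WT replicate 2 (0.068), and turned positive with quantile normalization (0.14) or the length trend removed (0.053). The cause was not tested. The samples share only replicate numbers: deviations of same-numbered libraries correlated at -0.16, -0.03 and -0.41, so no pairing was used. With the replicate block, 706 genes were up and 1017 down, *PR1* kept 0.93 and *PDF1.2* -1.18 and both lost the call (limma, adjusted p = 0.567 and adjusted p = 0.590), and no other call among the 8 changed. The difference between salicylate-type and jasmonate-ethylene-type genes moved by less than the spread between libraries with pseudocounts of 1 and 0.01. Counting error was estimated for the 8 genes alone and not for the list genes near 0 FPKM.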

Other observations

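Within 4 places of *PR1* or *LURP1*, 3 genes that are no relatives of them passed the cutoff, beside 5.02% of all genes upregulated and 6.64% downregulated. Of the other tested genes there that are no relatives, AT2G14520 and AT2G14635 did not pass. Around *PR5*, the only such gene within 4 places to pass was *ARC3*, 3 places away and upregulated (log2 fold change 0.94, adjusted p = 0.295, limma). Around *PR2*, *PR3*, *PR4*, *PDF1.2* and *UPI*, no tested gene within 4 places passed apart from relatives. The called genes were noticed after the values were seen, so the stretch around *PR1* and *LURP1* was picked for its calls. No explanation was tested. *XTH10*, a xyloglucan endotransglucosylase/hydrolase gene at chr2:6244772-6246279 on the far side of *PR1* from *LURP1*, measured 10.2, 13.0 and 5.20 FPKM in *kaku4-2* replicates 1, 2 and 3 and 2.36, 3.19 and 3.72 FPKM in the WT replicates. All *kaku4-2* libraries were above all WT libraries (log2 fold change 1.51, SE 0.38, adjusted p = 0.118, limma with Benjamini-Hochberg adjustment). *TBL13*, at chr2:6187371-6190380 before *LURP1*, was lower, at 4.40, 6.18 and 5.36 FPKM in *kaku4-2* and 8.56, 13.4 and 12.2 FPKM in WT (log2 fold change -1.07, SE 0.31, adjusted p = 0.177). AT2G14660, beyond *XTH10* at chr2:6272469-6273227, was also lower, at 28.8, 35.2 and 15.6 FPKM in *kaku4-2* and 39.1, 48.7 and 57.7 FPKM in WT (log2 fold change -0.93, SE 0.33, adjusted p = 0.256). *PRB1*, between *LURP1* and *PR1*, overlapped between the genotypes, so that neighbouring genes of this stretch differed in direction.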
